A study of Mus musculus with 9 samples.

Results

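The 27 genes described here build and mark the ventral forebrain: 6 regulators of its progenitors, 6 regulators of interneurons, the 2 genes for the enzymes that make GABA, 4 interneuron products, 4 regulators of striatal neurons and 5 products of striatal neurons. They were taken by symbol from the table of 55401 genes, each symbol matched 1 row, and all 27 had enough counts to be tested. The study profiled bulk forebrain by RNA sequencing in female C57BL/6J embryos at embryonic day 16 to 17. It held 5 WT embryos (Npas3+/+, numbered 5, 43, 41, 16 and 15) and 4 HET embryos (Npas3+/-, numbered 7, 6, 5 and 24), which carried a constitutive deletion of 1 allele of *Npas3*, so that every cell of the animal, and not a chosen cell type, was heterozygous. *Npas3* encodes a transcription factor of the basic helix-loop-helix PAS class. WT and HET embryos were littermates, the litter of each embryo is not named in the labels, and each embryo gave 1 library. No other allele or agent is named for either group.

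The ganglionic eminences are the swellings of the ventral telencephalon in which GABA-making neurons are born. Their progenitors express *Gsx1*, *Gsx2* and the DLX homeobox genes. Some of their neurons stay to form the striatum, and others migrate into the cortex and hippocampus as interneurons, which then switch on calcium-binding proteins, neuropeptides and receptors that tell the interneuron classes apart. Striatal projection neurons divide into a direct pathway that expresses the dopamine receptor DRD1 and the peptide gene *Tac1*, and an indirect pathway that expresses DRD2 and the peptide gene *Penk*.

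Total counts per embryo were between 42640218 and 62830060, so that 3 counts correspond to 0.0473 to 0.0722 CPM (counts over the TMM-scaled library size, set to a common total, the unit of every level below). *Npas3* itself was 29.7 to 40.8 CPM in WT and 27.8 to 34.1 CPM in HET, a log2 fold change of −0.30 ± 0.10 (SE) that did not pass the adjusted threshold (edgeR, adjusted p = 0.877), and the groups overlapped. The labels name astrocytes as the cell type, but the astrocyte genes *Gfap* and *Aqp4* were at most 12.5 and 2.02 CPM, *S100b* was too low to be tested, and *Aldh1l1* was 2.79 to 31.7 CPM. *Slc1a3*, *Slc1a2* and *Sox9*, which progenitors of the embryonic forebrain also express, were 247 to 319, 82.7 to 185 and 67.8 to 140 CPM. *Neurod6*, a gene of cortical excitatory neurons, was 707 to 1092 CPM, and since the tissue named is forebrain the libraries are called bulk forebrain. *Ttr*, which marks choroid plexus, was 2127 to 2631 CPM in WT 16, 15 and 41, 467 CPM in HET 24 and at most 11.7 CPM in the others.

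Promoter sequence is shown, from RefSeq on GRCm38.p6, for the genes that carry the main patterns: *Gsx2*, *Dlx2* and *Isl1*, which were low in the same 3 embryos, and *Npy*, whose groups did not overlap. Each holds the bases up to the annotated start, 5′ to 3′ on the strand of the gene, on chromosome 5 plus strand (chr5:75075351-75075600), chromosome 2 minus strand (chr2:71546755-71547004), chromosome 13 minus strand (chr13:116309690-116309938) and chromosome 6 plus strand (chr6:49822460-49822709). Capitals mark CANNTG, the general E-box bound by basic helix-loop-helix proteins, and ACGTG, a core bound by several factors of the PAS class. They were searched on both strands, and CACGTG holds both.
Gsx2: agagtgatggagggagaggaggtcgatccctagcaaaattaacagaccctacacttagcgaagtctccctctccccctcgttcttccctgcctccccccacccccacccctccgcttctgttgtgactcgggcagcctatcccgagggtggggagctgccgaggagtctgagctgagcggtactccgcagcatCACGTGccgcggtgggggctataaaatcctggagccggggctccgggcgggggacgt
Dlx2: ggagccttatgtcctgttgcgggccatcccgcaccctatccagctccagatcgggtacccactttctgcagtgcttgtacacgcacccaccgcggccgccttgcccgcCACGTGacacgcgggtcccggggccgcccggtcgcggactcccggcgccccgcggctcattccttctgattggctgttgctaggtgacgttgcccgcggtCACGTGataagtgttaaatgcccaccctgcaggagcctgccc
Isl1: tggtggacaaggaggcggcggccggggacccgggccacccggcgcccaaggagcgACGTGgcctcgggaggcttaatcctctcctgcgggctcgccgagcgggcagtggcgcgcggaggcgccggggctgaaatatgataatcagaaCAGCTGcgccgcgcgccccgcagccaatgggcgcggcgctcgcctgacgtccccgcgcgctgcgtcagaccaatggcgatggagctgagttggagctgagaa
Npy: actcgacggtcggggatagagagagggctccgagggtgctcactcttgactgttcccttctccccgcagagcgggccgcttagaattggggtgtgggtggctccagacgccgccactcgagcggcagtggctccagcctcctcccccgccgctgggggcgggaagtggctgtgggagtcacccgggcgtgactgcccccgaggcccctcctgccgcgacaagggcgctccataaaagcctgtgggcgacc
The *Npy* stretch holds neither motif. The printed genes do not stand for all genes that were low in the same embryos. Of the others with a window, *Dlx1* and *Six3* held neither motif. *Gad1*, *Gad2* and *Sp8* held CANNTG only, *Sp9* held ACGTG only, and *Tac1* held both. RefSeq windows were found for 20 of the 27 genes, some with several starts, giving 27 windows of 250 bases. CANNTG was in 14 of these windows (51.9%) and in 66.2% of all 32851 promoter windows of that length. ACGTG was in 6 (22.2%) against 16.6%, and TAATTA, a core that many homeodomain proteins bind, was in 2 (7.41%) against 4.84%. The genes with no window were *Dlx5*, *Dlx6*, *Maf*, *Calb2*, *Htr3a*, *Penk* and *Ppp1r1b*.

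No gene of the 27 passed the threshold for HET against WT (edgeR quasi-likelihood test, adjusted p under 0.05 over 17818 genes), where 25 genes of all tested did, or 0.140%, 5 higher and 20 lower in HET. With DESeq2, the program the study used, 2 passed: *Npy* (adjusted p = 0.0284) and *Htr3a* (adjusted p = 0.000158), among 85 of 21632 genes. At an unadjusted p under 0.05 in edgeR, 2 of the 27 were higher in HET (*Npy* and *Tac1*) and 1 was lower (*Htr3a*), beside 2.32% higher and 3.09% lower over all genes. One of the 27, *Npy*, was higher in every HET embryo than in any WT embryo, which held for 0.786% of all genes, and none was lower without overlap, which held for 1.07%. The log2 fold change was above 0 for 20 of the 27, with a median of 0.14 beside −0.005 over all genes and a range from −1.45 to 0.85. Over all genes 8639 of 17818 were above 0. Without HET 7 the count was 12 of the 27 and the median turned to −0.03. The median SE of the 27 was 0.30, beside 0.12 over all genes. In bulk tissue, fewer cells of a type and less RNA per cell cannot be told apart.

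**Figure D1:**
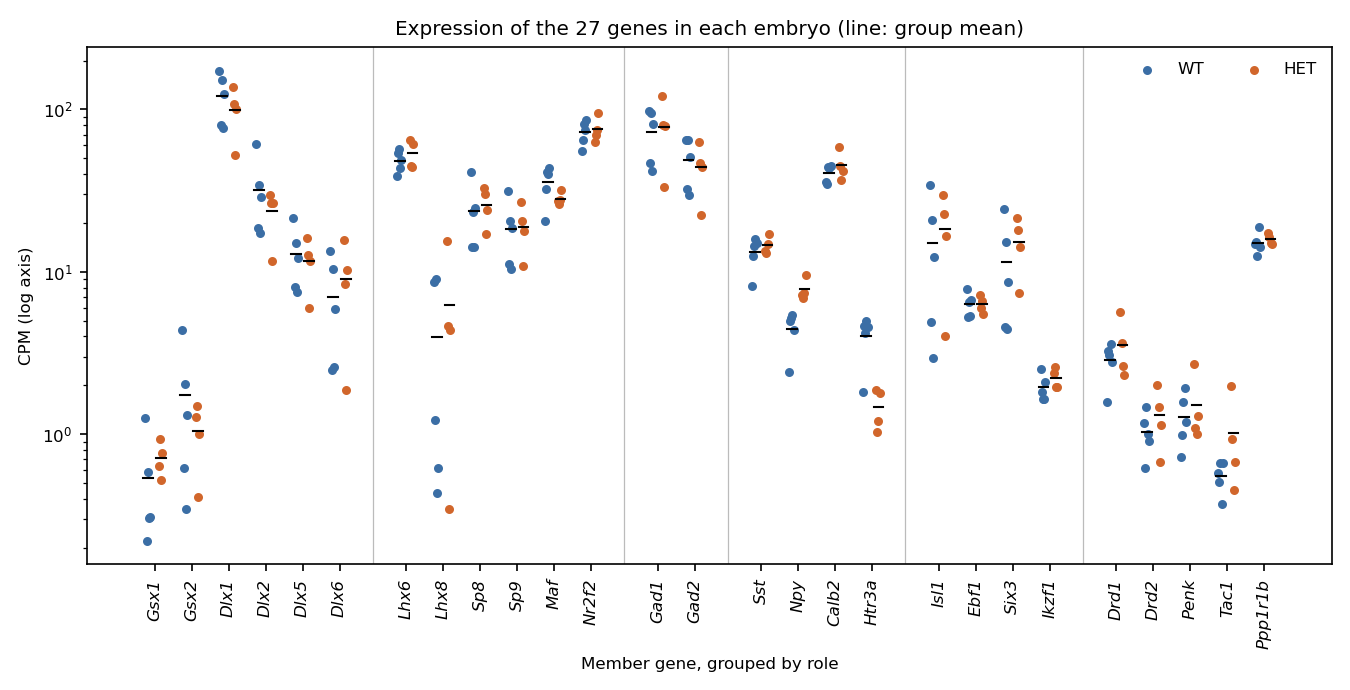
Levels of the 27 genes in CPM on a log axis, with 1 point per embryo (blue, WT, n = 5; orange, HET, n = 4) and a line at each group mean, grouped from left to right as ventral progenitor and DLX regulators, interneuron regulators, GABA synthesis, interneuron products, striatal regulators and striatal products. The points of *Npy* are apart, with 2.43 to 5.39 CPM in WT and 6.94 to 9.56 CPM in HET, and those of *Htr3a* overlap by 1 WT embryo, at 1.83 CPM.

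**Figure D2:**
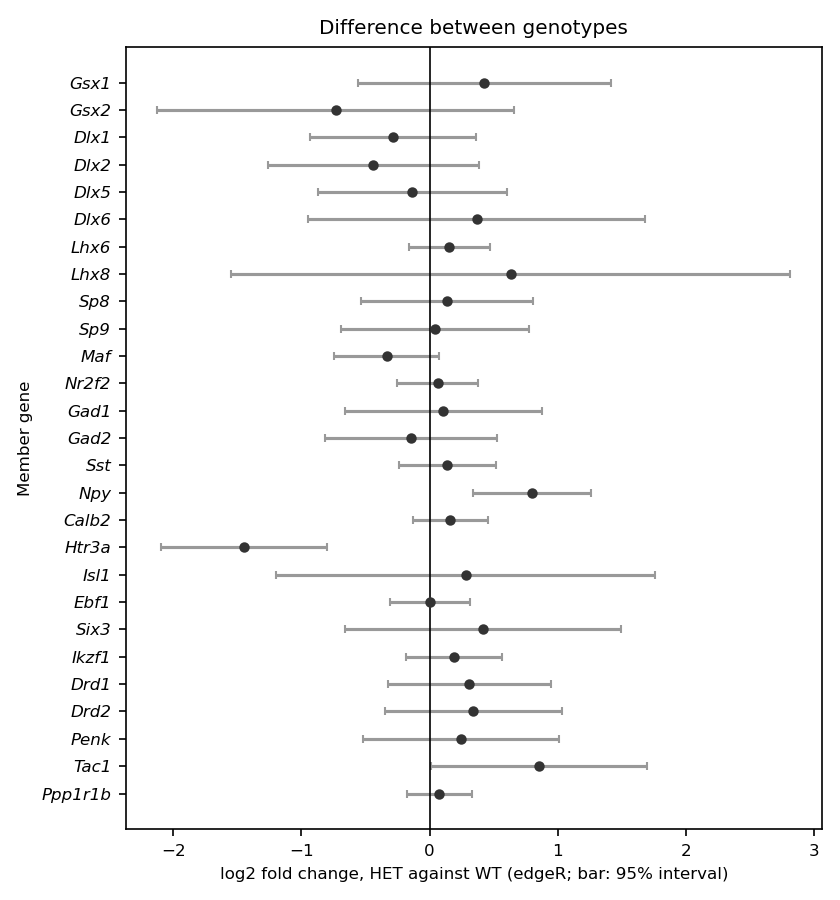
Log2 fold change of HET against WT for the 27 genes from edgeR, with the 95% interval as a bar and 0 marked by a line. The intervals of *Npy*, *Tac1* and *Htr3a* leave out 0, and none of the 3 passed after adjustment in edgeR. With DESeq2 *Npy* and *Htr3a* passed.

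*Gsx1* and *Gsx2* encode homeodomain factors that give ventral progenitors their identity. *Gsx1* was 1.25, 0.221, 0.583, 0.304 and 0.310 CPM in WT 5, 43, 41, 16 and 15 and 0.641, 0.931, 0.520 and 0.768 CPM in HET 7, 6, 5 and 24, the order in which all values below are given. WT 5 stood above the other embryos and the groups overlapped (log2 fold change 0.43 ± 0.45, SE). *Gsx2* was 4.40, 0.618, 2.03, 0.348 and 1.30 CPM in WT and 1.28, 1.49, 0.411 and 0.998 CPM in HET, a fold of 12.6 from lowest to highest, with WT 16, HET 5 and WT 43 at the bottom. Its log2 fold change was −0.73 ± 0.63, from counts of 16 to 183, with a 95% interval of −2.12 to 0.66, and it was −0.07 without WT 5.

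The DLX genes, homeobox regulators of GABA-making neurons, lie in pairs, *Dlx1* and *Dlx2* on chromosome 2 with 9426 bases between them and *Dlx6* and *Dlx5* on chromosome 6 with 9236 bases between them. *Dlx1* had the highest mean of the 27 in CPM, with 174, 80.7, 151, 76.3 and 124 CPM in WT and 137, 108, 52.2 and 100.2 CPM in HET. The group means were 121 ± 42.7 (SD, n = 5) and 99.4 ± 35.2 CPM (SD, n = 4), and the log2 fold change was −0.29 ± 0.30, or −0.08 without HET 5 and −0.12 without WT 5. HET 5, WT 16 and WT 43 were its 3 lowest embryos. *Dlx2* had the same 3 at the bottom, with 60.8, 18.6, 34.0, 17.2 and 28.9 CPM in WT and 29.6, 26.6, 11.6 and 26.4 CPM in HET (log2 fold change −0.44 ± 0.37, or −0.07 without WT 5). *Dlx5* was 21.3, 8.10, 14.95, 7.55 and 12.1 CPM in WT and 16.2, 12.8, 5.95 and 11.7 CPM in HET (−0.13 ± 0.33). *Dlx6* was 13.5, 2.47, 10.4, 2.59 and 5.90 CPM in WT and 15.6, 8.38, 1.86 and 10.2 CPM in HET (0.37 ± 0.60). The lowest 3 embryos were HET 5, WT 16 and WT 43 for all 4 DLX genes. The adjusted p was at least 0.912 for each of the 6 regulators in this group (edgeR). Exons of *Dlx1* overlap the opposite-strand gene *Dlx1as* over 6.2% of their bases, and the counting of strand is not given in the sources used here, so these reads cannot be told apart.

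Of the interneuron regulators, *Lhx6*, which directs the medial ganglionic eminence lineage, was 39.0, 54.2, 56.7, 43.5 and 48.6 CPM in WT and 65.2, 45.1, 44.1 and 61.1 CPM in HET. Its range of 1.67-fold between the lowest and highest embryo was small beside that of most of the 27 genes, and its log2 fold change was 0.15 ± 0.14. *Lhx8*, which is needed for cholinergic neurons of the basal forebrain, was 8.64, 1.21, 9.04, 0.435 and 0.619 CPM in WT and 15.5, 4.61, 0.346 and 4.36 CPM in HET, the widest range of the 27 at 44.9-fold. Its 3 highest embryos, HET 7, WT 41 and WT 5, came from both genotypes, and the log2 fold change of 0.63 had an SE of 0.99 (95% interval −1.55 to 2.82).

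*Sp8* and *Sp9*, zinc finger genes of the lateral and caudal ganglionic eminences, had the low embryos of the DLX genes. *Sp8* was 41.2, 14.3, 23.4, 14.1 and 24.8 CPM in WT and 32.9, 29.9, 17.1 and 23.9 CPM in HET (log2 fold change 0.14 ± 0.30). *Sp9* was 31.6, 11.1, 20.6, 10.4 and 18.5 CPM in WT and 26.7, 20.4, 10.9 and 17.9 CPM in HET (0.04 ± 0.33). *Maf*, which acts in interneurons of the medial ganglionic eminence, was 20.6, 32.2, 41.3, 39.8 and 43.9 CPM in WT and 27.4, 26.0, 27.5 and 31.8 CPM in HET. WT 43, 41, 16 and 15 lay above every HET embryo, WT 5 lay below all of them, and the log2 fold change was −0.34 ± 0.19 (95% interval −0.74 to 0.07). *Nr2f2*, a nuclear receptor gene of caudal eminence interneurons, was 55.1, 64.9, 80.8, 74.6 and 86.1 CPM in WT and 62.9, 69.8, 74.4 and 95.2 CPM in HET, and the interval of its log2 fold change was −0.26 to 0.38.

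*Gad1* and *Gad2* encode the enzymes that make GABA from glutamate. *Gad1* was 97.8, 46.7, 95.4, 42.0 and 81.7 CPM in WT and 121, 79.9, 33.4 and 79.4 CPM in HET (log2 fold change 0.11 ± 0.35). *Gad2* was 64.9, 32.5, 64.9, 29.6 and 50.9 CPM in WT and 62.6, 46.7, 22.3 and 44.0 CPM in HET (−0.15 ± 0.30). HET 5, WT 16 and WT 43 were again the lowest 3 for both. Taken within a library, which needs no scaling between libraries, the *Gad1* to *Gad2* ratio was 1.51, 1.43, 1.47, 1.42 and 1.60 in WT and 1.93, 1.71, 1.497 and 1.81 in HET. HET 7, 6 and 24 were above every WT embryo and HET 5 was not, and the mean log2 ratio was 0.22 higher in HET (exact two-sided permutation test over embryos, p = 0.0397, adjusted p = 0.119 over 3 ratios, where the smallest p the design allows is 0.0079). After adjustment it did not pass.

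Among the interneuron products, *Htr3a* and *Npy* had the lowest unadjusted p of the 27. *Npy*, the gene of the peptide neuropeptide Y, was 2.43, 4.95, 5.20, 5.39 and 4.38 CPM in WT and 7.21, 6.94, 7.43 and 9.56 CPM in HET. The means were 4.47 ± 1.203 (SD, n = 5) and 7.79 ± 1.201 CPM (SD, n = 4), the groups did not overlap, and the log2 fold change was 0.80 ± 0.21 (edgeR, unadjusted p = 0.0029, adjusted p = 0.531). With DESeq2 the adjusted p of *Npy* was 0.0284. *Htr3a*, a serotonin-gated channel of caudal eminence interneurons, was 1.83, 4.64, 4.19, 4.96 and 4.58 CPM in WT and 1.88, 1.02, 1.21 and 1.79 CPM in HET. WT 5 was below HET 7 and every other WT embryo was at 4.19 CPM or more, so that only WT 5 made the groups overlap. Its log2 fold change was −1.45 ± 0.29 (95% interval −2.10 to −0.80; edgeR, unadjusted p = 0.000467, adjusted p = 0.170). Without WT 5, the embryo seen in these values to make the overlap, the adjusted p of *Htr3a* was 0.0106 (edgeR). Without any 1 other embryo it was 0.246 to 0.653 (edgeR). Over the 19 alternatives it ran from 0.000158, with DESeq2, to 0.999. The summed choroid plexus marker level ran from 18.9 to 2888 CPM in WT and from 28.7 to 532 CPM in HET over its 8 genes, with at most 1 of them at 0 in a library. Fitted beside a score of those markers, *Htr3a* had a log2 fold change of −1.23 (adjusted p = 0.228) and *Npy* one of 0.98 (adjusted p = 0.120, edgeR), each with the sign it had before. When only embryos whose *Ttr* was below 100 CPM were fitted (2 WT, 3 HET), the values were −1.23 for *Htr3a* and 0.96 for *Npy* (adjusted p = 0.999 for each).

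*Sst*, the peptide gene of somatostatin interneurons, was 8.23, 12.5, 14.4, 15.9 and 15.04 CPM in WT and 13.4, 13.1, 14.8 and 17.0 CPM in HET (log2 fold change 0.14 ± 0.17). *Calb2*, the calcium-binding protein calretinin, was 35.8, 34.7, 44.1, 43.9 and 44.5 CPM in WT and 58.5, 44.8, 36.6 and 42.0 CPM in HET (0.16 ± 0.13). *Sst* and *Npy* both had WT 5 as the lowest embryo, and *Calb2* had WT 43. Neither *Sst* nor *Calb2* showed the pattern of low embryos seen for the DLX genes.

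The 4 striatal regulators had log2 fold changes above 0, and none passed the threshold. *Isl1*, a LIM homeobox gene of direct-pathway and cholinergic neurons, was 34.1, 4.90, 20.8, 2.96 and 12.3 CPM in WT and 29.6, 22.8, 4.05 and 16.6 CPM in HET, a range of 11.5-fold, with WT 16, HET 5 and WT 43 at the bottom (log2 fold change 0.28 ± 0.67). *Six3*, a homeobox gene of the lateral eminence, was 24.3, 4.55, 15.3, 4.44 and 8.65 CPM in WT and 21.5, 18.1, 7.45 and 14.2 CPM in HET (0.42 ± 0.49). *Ebf1*, which acts in direct-pathway neurons, was 5.28 to 7.82 CPM in WT and 5.51 to 7.23 CPM in HET, the narrowest range of the 27 at 1.48-fold (95% interval of the log2 fold change −0.31 to 0.32). *Ikzf1*, a zinc finger gene also used by blood cells, was 1.64 to 2.502 CPM in WT and 1.94 to 2.58 CPM in HET (0.19 ± 0.17).

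The 5 striatal products were low, with *Ppp1r1b* as the exception. *Drd1* was 1.59, 3.27, 3.09, 3.61 and 2.76 CPM in WT and 5.66, 3.66, 2.62 and 2.30 CPM in HET (log2 fold change 0.31 ± 0.29), with HET 7 well above the others. *Drd2* was 1.18, 0.618, 1.47, 1.0005 and 0.907 CPM in WT and 2.005, 1.47, 0.671 and 1.13 CPM in HET (0.34 ± 0.32). Their ratio within a library ran from 1.34 to 5.21 in WT and from 2.03 to 3.86 in HET, and the mean log2 ratio differed by −0.02 (exact permutation test, p = 0.952, adjusted p = 0.952). *Penk*, which encodes enkephalin, was 0.722, 0.994, 1.58, 1.91 and 1.19 CPM in WT and 2.71, 1.09, 0.996 and 1.29 CPM in HET (0.24 ± 0.35), and its exons overlap an opposite-strand gene over 14.3% of their bases. *Tac1*, which encodes substance P, was 0.577, 0.508, 0.662, 0.370 and 0.663 CPM in WT and 1.98, 0.931, 0.455 and 0.672 CPM in HET. HET 7 was the highest embryo by more than 2-fold and HET 5 was within the WT range, with a log2 fold change of 0.85 ± 0.38 (edgeR, unadjusted p = 0.0470, adjusted p = 0.911) that rested on 17 to 96 counts. Without HET 7 it was 0.30. The *Tac1* to *Penk* ratio differed by 0.46 on the log2 scale (exact permutation test, p = 0.341, adjusted p = 0.512). *Ppp1r1b*, which encodes the dopamine-regulated phosphatase inhibitor DARPP-32, was 12.6 to 18.8 CPM in WT and 14.9 to 17.4 CPM in HET (0.08 ± 0.11). Opposite-strand exons cover 15.7% of its exonic bases.

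A set of low embryos was shared by many of these genes. HET 5, WT 16 and WT 43 were the 3 lowest embryos for 12 of the 27 genes (44.4%): *Gsx2*, *Dlx1*, *Dlx2*, *Dlx5*, *Dlx6*, *Sp8*, *Sp9*, *Gad1*, *Gad2*, *Isl1*, *Six3* and *Tac1*. Over all 17818 genes the same 3 embryos were lowest for 842 (4.73%). This set of embryos was noticed in the values, holds both genotypes, and is given as a description. None of the 4 interneuron products had it. WT 5 was the highest embryo for 11 of the 27 genes and the lowest for 7, and HET 7 was the highest for 9.

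**Figure D3:**
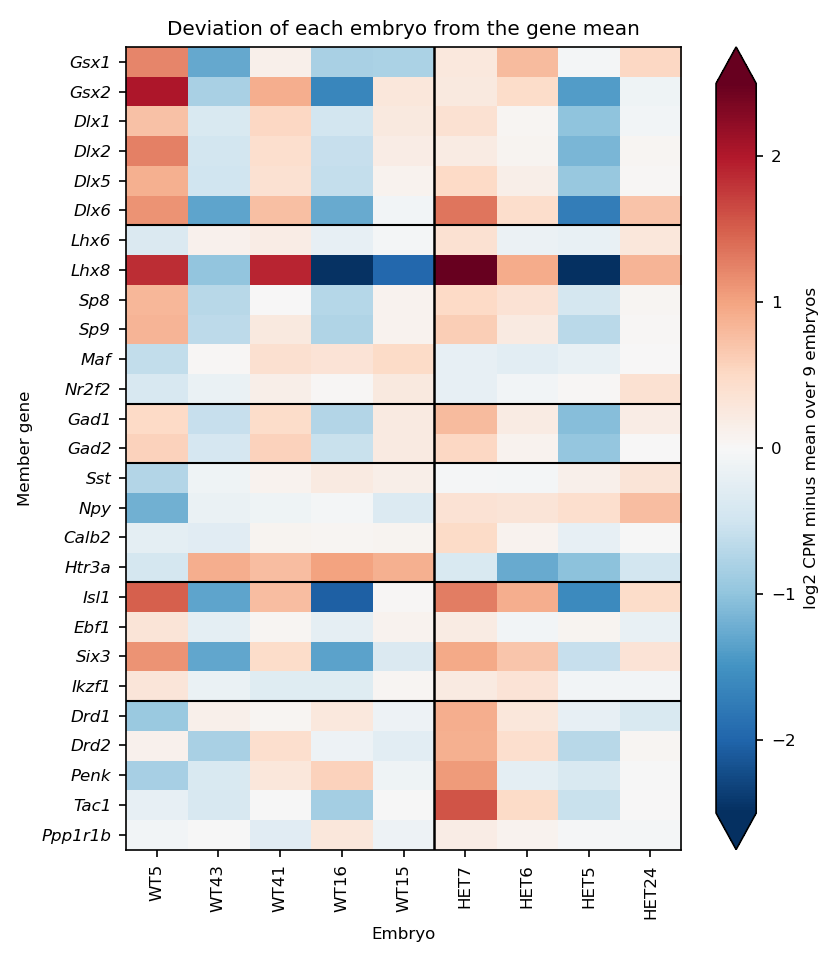
Log2 CPM of each embryo minus the mean over the 9 embryos, for the 27 genes (rows, grouped by role with lines) and the embryos (columns, WT left of the line and HET right of it), with colours ending at 2.5 on either side. WT 43, WT 16 and HET 5 are blue for the DLX genes, *Gad1*, *Gad2*, *Isl1* and *Six3*, and *Lhx8* has the strongest colours with a 44.9-fold range.

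The within-genotype SD of log2 CPM had a median of 0.56 over the 27 genes, beside 0.18 over all genes tested. It was above the median of all genes for 26 of the 27, above their 95th percentile for 8 (29.6%, where 5.0% of all genes are), and above their 99th percentile for 3: *Dlx6*, *Lhx8* and *Isl1*. *Ppp1r1b* was the gene below the median, at an SD of 0.17. Wide spread was not particular to the 27. Above the 95th percentile were 87.5% of choroid plexus, 33.3% of astrocyte and 20% of oligodendrocyte lineage markers. So were 13.9% of the 36 other pathway genes tested, with 60% among their 5 ventral progenitor regulators. No pallial, microglial, erythroid or endothelial marker was. Nor was any of the 4 diencephalic markers that could be tested, of 8 listed. The ratio of the highest to the lowest embryo had a median of 3.57 over the 27 genes and 1.49 over all genes.

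**Figure D4:**
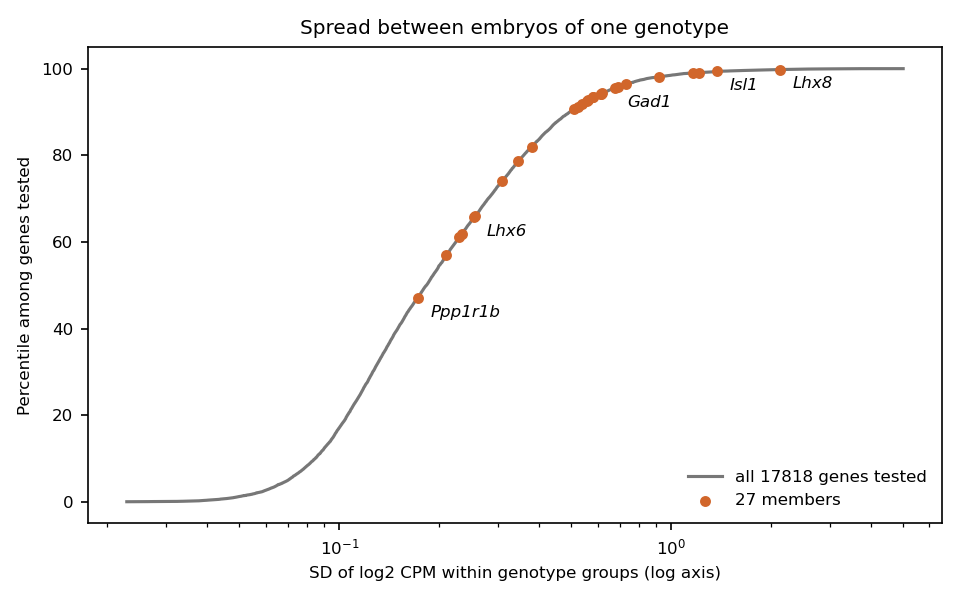
Within-genotype SD of log2 CPM on a log axis against its percentile among the 17818 genes tested (grey line), with the 27 genes as points. *Lhx8* and *Isl1* lie above the 99th percentile, and *Ppp1r1b* lies just below the median.

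Markers of other regions and cell types were read in the same embryos. The summed level of 10 pallial markers, none of them at 0, was 2299, 2355, 2034, 2608 and 1969 CPM in WT 5, 43, 41, 16 and 15 and 2084, 2133, 2492 and 2114 CPM in HET 7, 6, 5 and 24. This sum was highest in WT 16, HET 5 and WT 43, but *Neurod6* made up a large part of it, and the match did not hold over the list. By the mean log2 CPM of the 10 genes WT 5 (7.33) was above WT 43 (7.31), below HET 5 (7.43) and WT 16 (7.38), and *Emx1*, *Emx2*, *Neurog2* and *Tbr1* were highest in WT 5. The summed level of 5 oligodendrocyte lineage genes, whose early precursors also arise ventrally, was 58.2, 33.5, 63.1, 42.0 and 60.7 CPM in WT and 69.5, 56.7, 41.5 and 57.2 CPM in HET, lowest in WT 43, HET 5 and WT 16. Those embryos were the 3 lowest for 2 of these 5 genes, 1 of 5 endothelial and 1 of 6 astrocyte genes. They were the 3 lowest for none of the choroid plexus, pallial, microglial or erythroid genes, and none of the 4 diencephalic genes tested. With the pallial mean as a covariate, none of the 27 genes passed the threshold, 20 were above 0 and the median log2 fold change was 0.20, with *Htr3a* at −1.41 (edgeR, adjusted p = 0.201). No covariate was fitted for the oligodendrocyte lineage, and its part was not tested. The labels name only a day range, 16 to 17, and not the day of each embryo.

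**Figure D5:**
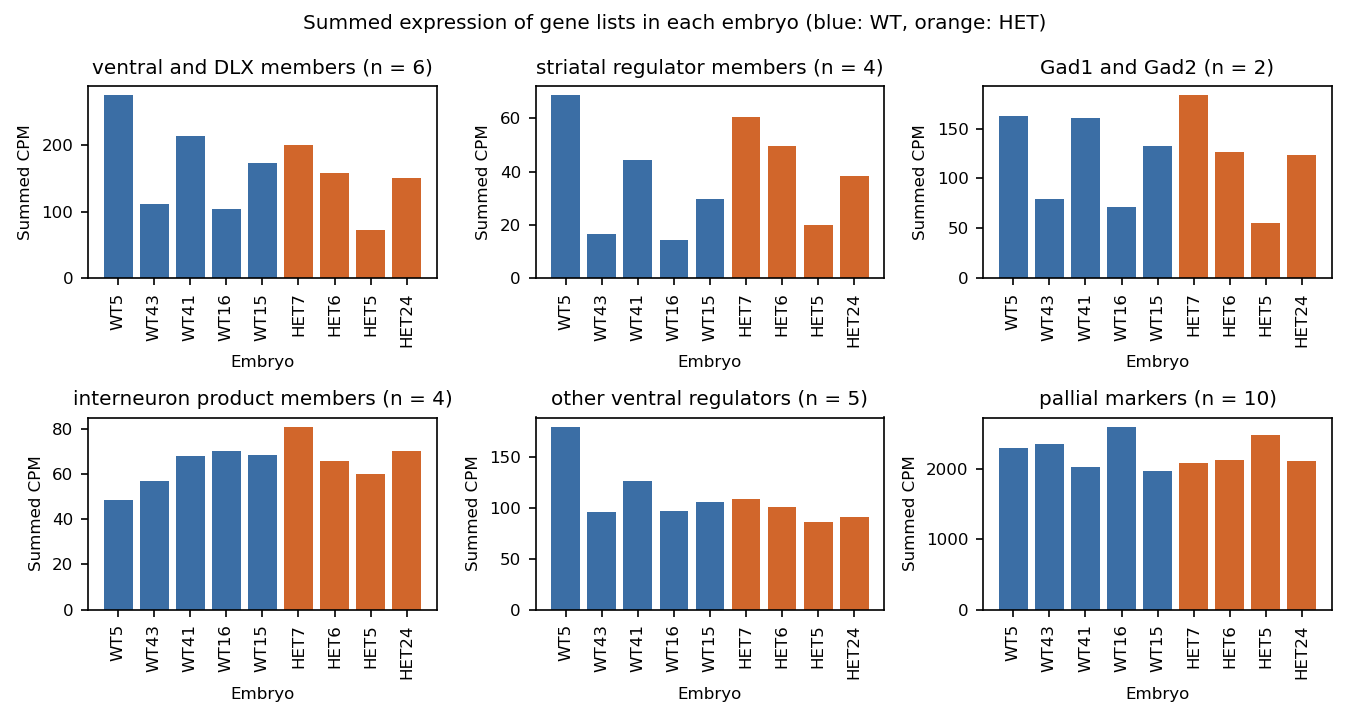
Summed CPM in each embryo (blue, WT; orange, HET; bars from 0) of 4 groups of the 27 genes, of 5 other ventral progenitor regulators and of 10 pallial markers. WT 16 and HET 5 are the lowest for the *Gad1* and *Gad2* pair, at 71.6 and 55.7 CPM, and the highest for the summed pallial markers, of which *Neurod6* is a large part.

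Other genes of the same pathways were taken from a list of 43, of which 36 could be tested. None passed the threshold (edgeR), which 0.140% of all genes did, and the median log2 fold change was 0.004. At an unadjusted p under 0.05, 2 were higher and 5 lower, beside 2.32% higher and 3.09% lower over all genes. *Ackr3*, the chemokine receptor that shapes interneuron migration by clearing CXCL12, was 30.0, 34.8, 35.4, 33.1 and 29.9 CPM in WT and 20.6, 23.9, 25.2 and 21.8 CPM in HET. The groups did not overlap, and the log2 fold change was −0.51 ± 0.09 (edgeR, unadjusted p = 8.59e-05, adjusted p = 0.0567). With DESeq2 the adjusted p of *Ackr3* was 4.03e-05. *Dlx1as*, the transcript opposite *Dlx1*, was 10.6 to 16.2 CPM in WT and 7.40 to 10.4 CPM in HET (−0.49 ± 0.15, adjusted p = 0.768), without overlap. *Dlx1* covers 20.6% of its exonic bases on the other strand and was far more abundant, so the value of *Dlx1as* is uncertain. *Ackr3* and *Dlx1as* were the 2 of the 36 lower without overlap, which held for 1.07% of all genes. None was higher without overlap, which held for 0.786%. *Nos1*, the nitric oxide synthase of a class of interneurons, had a log2 fold change of 0.31 ± 0.12. That of *Rxrg*, a retinoid receptor gene of the striatum, was 0.43 ± 0.19, and that of *Gpr6*, a receptor gene of indirect-pathway neurons, was 0.78 ± 0.44. HET 5, WT 16 and WT 43 were the 3 lowest embryos for 10 of these 36 genes (27.8%), beside 4.73% of all genes. Not all of the 10 are separate loci, since the 36 include 4 transcripts listed for overlap, of which 2, *Dlx6os1* and *Six3os1*, are among the 10. *Dlx6os1* spans the *Dlx6* locus on the other strand. Exons of *Six3os1* overlap those of *Six3* on the other strand, so reads from the shared bases cannot be told apart. Among the 10 were *Slc32a1*, which loads GABA into vesicles, and *Nkx2-1*, the regulator of the medial ganglionic eminence.

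Per kilobase of exon, the levels in WT ran from 23.3 ± 2.81 CPM per kb (SD, n = 5) for *Calb2*, 22.5 ± 7.92 for *Dlx1* and 18.3 ± 4.24 for *Sst*, down to 0.301 ± 0.239 for *Gsx1* and 0.164 ± 0.0361 for *Tac1*. *Dlx2* (11.2 ± 6.17), *Lhx6* (10.1 ± 1.52), *Gad1* (9.52 ± 3.49), *Nr2f2* (8.39 ± 1.44), *Gad2* (8.27 ± 2.89) and *Npy* (7.90 ± 2.12) followed *Sst*, and from *Dlx2* to *Npy* neighbours in this order lay within the spread of one another.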

How the data were processed

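Bulk forebrain of 5 WT and 4 HET embryos was sequenced from poly(A) RNA. The deposited counts per gene were made by the authors with STAR 2.7.9a and featureCounts on GENCODE release M25 (GRCm38.p6), were not normalized, and use 1 read of each pair. The strand setting is not given in the sources used here. Samples were grouped by the genotype in the labels, no column was left unmapped (0), and no 2 samples had identical counts. Genes were filtered with edgeR 4.0.16 (filterByExpr, minimum count 10), scaled by TMM and tested with its quasi-likelihood test in R 4.3.3, with Benjamini-Hochberg adjustment and a threshold of 0.05. The SE was derived from the F statistic and the 95% interval from its degrees of freedom. CPM are counts over the TMM-scaled library size of the genes that passed the filter. Total counts per embryo were 42640218 to 62830060, and 3 counts were taken as the floor, for counting error only. Ratios within a library used a prior of 0.5 counts and an exact permutation test. DESeq2 1.42.0, limma 3.58.1, other scalings and filters, covariates and left-out embryos were alternatives. DESeq2 was the program the study used for its own comparison. The fits were tested on simulated data of 17818 genes, of which 200 were changed by an absolute log2 value of 1. Of the changed genes 75% were recovered, and 7.41% of the calls were false, above the threshold of 0.05. Recovery was not measured for the 27 genes alone, whose median SE was 0.30 beside 0.12 over all genes. Gene positions came from GENCODE M21, which lists 55141 of the 55401 identifiers. All 27 genes, *Npas3* and *Ttr* were named, as were, among the other pathway genes, those past the threshold and the 3 higher and 3 lower with the lowest unadjusted p, of which 1 is not reported here. The genes and lists were chosen with earlier results of these data known, and the motifs, the printed promoters, the spread percentiles, the shared low embryos and the names *Slc32a1* and *Nkx2-1* were chosen after values were seen. P-values measure the spread between embryos.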

Additional observations from a re-analysis of the deposited data

Results flagged for a closer look

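Of 54 groups of 4 or 5 embryos, 2 held an embryo far from the others of its genotype, where chance alone gives about 2.7. WT 5 stood apart for *Htr3a*, at 1.83 CPM beside 4.19 to 4.96 CPM in the other WT embryos. HET 7 stood apart for *Penk*, at 2.71 CPM beside 0.996 to 1.29 CPM in the other HET embryos.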

How the results depend on the processing

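No paired analysis was possible because the WT and HET embryos share only 1 number, 5, and nothing in the labels ties embryos of that number together. Of the 27 genes, 13 kept 1 sign in every alternative that tested them (19, or 18 for *Tac1*), and 25 were called in none. DESeq2 called 2 of the 27 (*Npy*, adjusted p = 0.0284, and *Htr3a*, adjusted p = 0.000158) and 85 of 21632 genes in all. In edgeR, no filter on low counts called 1 (*Htr3a*, adjusted p = 0.0496), with 6 genes higher and 29 lower of 33242 in all. Leaving out 1 embryo at a time called 0 to 1 of the 27 (*Htr3a*, without WT 5). The other pathway genes had 1 call, *Ackr3*, under DESeq2, upper-quartile scaling, no filter, a stricter filter and, added after seeing the data, a ventral progenitor score as a covariate. Over all genes, 15 were called in the embryos with *Ttr* under 100 CPM (2 WT, 3 HET) and 14 to 23 without 1 embryo. Signs turned for 14 genes and 1 ratio, none past the threshold, among them *Gsx1* (0.43 as reported), *Maf* (−0.34), *Isl1* (0.28) and *Lhx8* (0.63): *Ebf1* to −0.0024 with upper-quartile scaling, *Sp9* to −0.046 and *Ebf1* to −0.041 with a choroid plexus covariate, and, in the embryos with low *Ttr*, *Gsx1* to −0.066, *Sp8* to −0.058, *Sp9* to −0.14, *Maf* to 0.032, *Isl1* to −0.048 and the *Drd1* to *Drd2* ratio to 0.18. Without 1 embryo the ranges were *Dlx5* −0.33 to 0.13, *Nr2f2* −0.067 to 0.15, *Sp9* −0.17 to 0.32, *Gad1* −0.17 to 0.36, *Ebf1* −0.065 to 0.090, *Dlx6* −0.028 to 0.74, *Lhx8* −0.36 to 1.197, *Isl1* −0.046 to 0.83, *Drd1* −0.0051 to 0.47, *Penk* −0.19 to 0.43, *Gad2* −0.36 to 0.072, and the *Drd1* to *Drd2* ratio −0.28 to 0.21. The cause of these turns was not tested. The median log2 fold change of the 27 was 0.09 to 0.25 without any 1 embryo other than HET 7 (−0.03). Counts of 3 per library limit the lowest of the 27 genes, *Gsx1*, *Gsx2*, *Lhx8* and *Tac1*, which had under 20 counts in some embryos. The same holds for *Gpr6*, with 7 to 43 counts.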
